A study of Mus musculus with 8 samples.

Results

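The transcripts of 10 chemokine genes were followed through 8 RNA libraries of mixed co-cultures, 9 of them CXC chemokines and 1, Cx3cl1, the CX3C chemokine fractalkine. They were chosen by name, as the rows with these 10 gene symbols among the 52636 gene IDs of the abundance tables, and all 10 were found. They were sorted by their known action into 4 neutrophil-attracting members (Cxcl1, Cxcl2, Cxcl3 and Cxcl5), 2 interferon-induced members (Cxcl9 and Cxcl10), 2 homeostatic members (Cxcl12 and Cxcl14) and 2 transmembrane members (Cxcl16 and Cx3cl1). The trogocytic co-cultures (4 libraries) held mouse splenocytes together with colon cancer cells sorted as trogocytic, and the non-trogocytic co-cultures (4 libraries), which served as the control, held splenocytes with colon cancer cells sorted as non-trogocytic. Trogocytosis is the transfer of membrane pieces with their proteins from one cell to another. In both groups the cancer cells came from tdTomato-carrying organoids, were put into mice by way of the spleen and were recovered as liver metastases, with tdTomato and CD4, a protein of helper T cells, used for the sort. In both groups the splenocytes came from Actin-GFP reporter mice, the labelled strain was C57BL/6, 1 cancer cell was mixed with 50 splenocytes, and the mixture was kept for 5 days. Mouse age and organoid genotype beyond the reporter were not found in the labels. Nothing in the labels ties replicates to different animals or cultures, and p-values here therefore refer to the scatter among the libraries alone, which can be technical.

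Chemokines are small secreted proteins that bind G protein-coupled receptors and steer leukocytes along a gradient. CXC chemokines that carry a glutamate-leucine-arginine motif before their first cysteines bind Cxcr2 and draw neutrophils, and in gut epithelium they are induced through NF-kB by interleukin 1, tumour necrosis factor and bacterial products. Cxcl9 and Cxcl10 lack that motif, are induced by interferons in macrophages and epithelium, and draw activated T cells and natural killer cells through Cxcr3. Cxcl12 is the stromal ligand of Cxcr4 and of the scavenger Ackr3, Cxcl14 is made by epithelia and stroma, and Cxcl16 and Cx3cl1 are made as membrane proteins on a stalk that can be cut off, with Cxcr6 and Cx3cr1 as receptors.

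Aligned bases came to between 1.39 and 1.84 Gb a library, and 10867 to 12362 genes reached 1 TPM, a share of the transcripts of a library scaled for gene length. RNA came from the whole mixture, so a value sums over all cell types, and fewer cells of a type cannot be told apart from less RNA per cell. Epithelial and myeloid transcripts were both present in every library. The 15 genes of a colon epithelium and carcinoma list summed to 6218 to 7645 TPM in trogocytic and 3834 to 9989 TPM in non-trogocytic co-cultures, and 14 macrophage and monocyte genes to 1735 to 5448 TPM and 3463 to 15095 TPM. A neutrophil list of 12 genes summed to 547 to 999 TPM in trogocytic and 435 to 1136 TPM in non-trogocytic co-cultures, although Csf3r, the receptor that sustains neutrophils, was listed at 0 in all 8 libraries. Non-trogocytic replicate 3 alone held hepatocyte transcripts: the 6 genes of that list summed to 155 TPM there and were listed at 0 in the other 7 libraries.

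Among the 10 members, Cxcl16 and Cxcl1 carried most of the message, and the other 8 were low on average. Averaged over the 8 libraries, Cxcl16 stood at 88.7 TPM, above 89.5% of the 17040 genes that reached 1 TPM in at least 1 library, and Cxcl1 at 29.6 TPM, above 78.9% of them. Cxcl5 followed at 4.89 TPM, Cxcl14 at 3.26, Cxcl10 at 1.41, Cxcl12 at 0.766, Cx3cl1 at 0.735, Cxcl2 at 0.290, Cxcl9 at 0.203 and Cxcl3 at 0.0157 TPM, and these averages include libraries in which the gene was listed at 0. Cxcl16 exceeded Cxcl1 in 8 of 8 libraries, by 1.86 ± 1.16 (SD) on the log2(TPM + 1) scale, and Cxcl1 exceeded Cxcl5 in 8 of 8, by 2.52 ± 1.24 (SD). From Cxcl5 downwards, no gene differed from the next in this order by more than the SD of the difference between libraries. Of the 10 members, 8 were listed at 0 in at least 1 library, and so were 38.5% of the genes that reached 1 TPM. Cxcl3, among the 8, never reached 1 TPM and is not one of those genes.

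**Figure D1:**
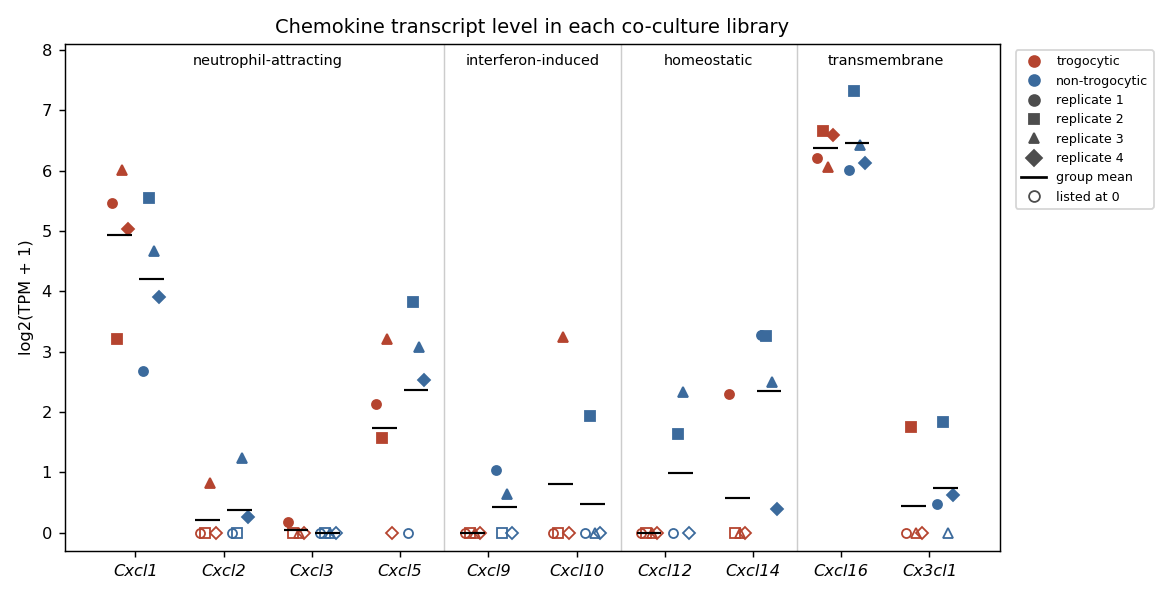
Level of each chemokine on the log2(TPM + 1) scale in the 8 libraries, trogocytic left of non-trogocytic, with symbols for replicate numbers, open symbols for values listed at 0 and a bar for the group mean of the log2 values. Cxcl16 and Cxcl1 lie above the other members, except in non-trogocytic replicate 1, where Cxcl14 (8.64 TPM) lies above Cxcl1 (5.43 TPM), and no gene separates the groups.

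None of the 4 chemokines that could be tested was called as different between the groups. A gene was tested if it reached 1 TPM in at least 4 libraries, which left 11433 genes and 4 of the 10 members: Cxcl1, Cxcl5, Cxcl14 and Cxcl16. With limma and Benjamini-Hochberg adjustment over all tested genes, 0 of these 4 were called at an adjusted p below 0.05, against a background of 0.0525% of all tested genes (0.0175% higher and 0.035% lower in trogocytic co-cultures). At an unadjusted p below 0.05 there was 1 member, Cxcl14, against 4.59% of all tested genes. The groups overlapped for all 10 members, and they did not overlap for 2.68% of the tested genes. Of the 4 tested members 1 had a fold change above 0 and 3 below, with a median log2 fold change of −0.36 trogocytic over non-trogocytic, against 0.01 over all tested genes, of which 49.3% lay below 0. Over all tested genes only 6 were called, so the libraries separated few genes of any kind.

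**Figure D2:**
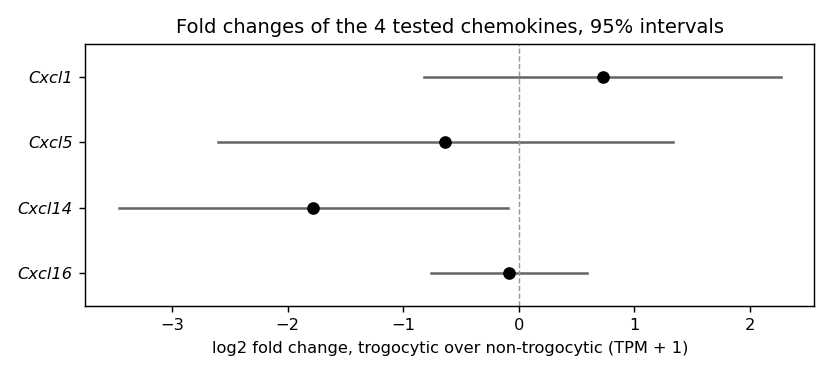
Log2 fold change, trogocytic over non-trogocytic on the log2(TPM + 1) scale, for the 4 chemokines that reached the filter, with 95% intervals from the limma fit. The intervals of Cxcl1, Cxcl5 and Cxcl16 cover 0, and that of Cxcl14, from −3.46 to −0.09, does not before adjustment for the number of genes tested.

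Among the neutrophil-attracting members, Cxcl1 had the highest level in every library. Cxcl1 (ENSMUSG00000029380.11, GRCm38 chromosome 5, 90891241 to 90893115, plus strand, protein-coding), known as a main neutrophil attractant of injured epithelium, had 43.1, 8.26, 63.8 and 31.7 TPM in trogocytic replicates 1 to 4, against 5.43, 45.7, 24.5 and 13.9 TPM in non-trogocytic replicates 1 to 4. Trogocytic replicate 3 was the highest library and non-trogocytic replicate 1 the lowest, and within each group the values ranged widely enough that the groups overlapped. The means were 36.7 ± 23.2 TPM in trogocytic and 22.4 ± 17.4 TPM in non-trogocytic co-cultures (SD, n = 4 each). On the log2 scale the groups differed by 0.73 ± 0.70 (SE, adjusted p = 0.9998 in limma), with a 95% interval from −0.82 to 2.27. Without replicate 1 of each group the log2 fold change was 0.05, and without trogocytic replicate 2 it was 1.302, neither passing.

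Cxcl5 (ENSMUSG00000029371.7, chromosome 5, 90759360 to 90761624, plus strand), an epithelial Cxcr2 ligand, had 3.40, 1.97, 8.23 and 0 TPM in trogocytic and 0, 13.2, 7.46 and 4.80 TPM in non-trogocytic replicates 1 to 4. Each group had 1 library listed at 0, and the groups overlapped. Its log2 fold change was −0.63 ± 0.89 (SE, adjusted p = 0.9998 in limma), with a 95% interval from −2.60 to 1.34. Leaving out non-trogocytic replicates 2 and 3, the highest of that group, turned the sign, to 0.46. The 3 libraries highest in Cxcl5, non-trogocytic replicates 2 and 3 and trogocytic replicate 3, all had Cxcl1 at 24.5 TPM or more, but trogocytic replicate 4 had 31.7 TPM of Cxcl1 with Cxcl5 listed at 0.

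Cxcl2 (ENSMUSG00000058427.10, chromosome 5, 90903871 to 90905938, plus strand), which macrophages release quickly after a bacterial stimulus, was listed at 0 in 5 of 8 libraries. It had 0.764 TPM in trogocytic replicate 3, against 1.35 and 0.201 TPM in non-trogocytic replicates 3 and 4, which rest on about 5.2, 10.6 and 1.4 read pairs. Cxcl3 (ENSMUSG00000029379.10, chromosome 5, 90786103 to 90789600, plus strand), its close relative, had 0.126 TPM in trogocytic replicate 1, about 1.3 read pairs, and was listed at 0 in the other 7 libraries. Neither reached the filter, so neither was tested. Coding transcripts of Cxcl2 and Cxcl3 share an identical run of 110 bases, longer than a read of 100 bp, so the division of reads between these genes is uncertain. The coding transcript of Cxcl1 shares at most 23 identical bases in a row with either.

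Cxcl1 thus held most of the message of the 4 listed neutrophil-attracting members. It made up 92.4, 80.7, 87.7 and 100.0% of the summed TPM of the 4 members in trogocytic replicates 1 to 4, against 100.0, 77.6, 73.6 and 73.6% in non-trogocytic replicates 1 to 4. The summed level was 10.2 to 72.8 TPM in trogocytic and 5.43 to 58.9 TPM in non-trogocytic co-cultures. CXC ligands outside the 10 members are not in this sum. One of them, Ppbp, averaged 21.8 TPM over the 8 libraries, against 29.6 TPM for Cxcl1.

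The contrast among Cxcl1, Cxcl2 and Cxcl3 is shown with their promoters, because these neighbours carry the same NF-kB letters at different transcript levels. Cxcl1 and Cxcl2 lie 10.8 kb apart and Cxcl3 lies 101.6 kb on the other side of Cxcl1. RefSeq's promoter table for GRCm38.p6 held 8 of the 10 members, and the 250 bases before the RefSeq start are printed here 5′ to 3′ on the gene's strand. Searched on both strands were the NF-kB motif by its name, the interferon-stimulated response element by its name, the interferon-gamma activated site TTCNNNGAA, the AP-1 motif TGANTCA and the TATA letters TATAAA. Capitals mark matches.
Cxcl1: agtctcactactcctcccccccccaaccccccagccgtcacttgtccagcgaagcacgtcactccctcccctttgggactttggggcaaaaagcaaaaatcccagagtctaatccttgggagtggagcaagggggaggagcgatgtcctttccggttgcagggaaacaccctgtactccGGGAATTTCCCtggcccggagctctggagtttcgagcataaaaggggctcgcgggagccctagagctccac
Cxcl2: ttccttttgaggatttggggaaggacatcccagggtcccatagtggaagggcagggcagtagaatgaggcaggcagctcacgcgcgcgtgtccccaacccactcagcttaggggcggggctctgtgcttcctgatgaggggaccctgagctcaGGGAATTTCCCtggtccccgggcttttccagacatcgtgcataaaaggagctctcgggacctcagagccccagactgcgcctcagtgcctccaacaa
Cxcl3: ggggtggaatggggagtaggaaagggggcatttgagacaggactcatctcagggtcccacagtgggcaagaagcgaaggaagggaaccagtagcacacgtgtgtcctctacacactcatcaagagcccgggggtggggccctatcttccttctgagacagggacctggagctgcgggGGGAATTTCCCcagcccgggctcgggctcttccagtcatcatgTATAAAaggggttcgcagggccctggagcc
Cxcl10: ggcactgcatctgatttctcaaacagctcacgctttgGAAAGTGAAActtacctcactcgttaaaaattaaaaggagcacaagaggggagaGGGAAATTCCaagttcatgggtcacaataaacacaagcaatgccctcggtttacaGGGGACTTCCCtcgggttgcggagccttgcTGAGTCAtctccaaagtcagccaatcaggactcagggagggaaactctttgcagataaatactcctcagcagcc
These windows are at chr5:90890995-90891244 (plus strand) for Cxcl1, chr5:90903649-90903898 (plus strand) for Cxcl2, chr5:90785851-90786100 (plus strand) for Cxcl3 and chr5:92348890-92349139 (minus strand) for Cxcl10. Cxcl1, Cxcl2 and Cxcl3 share the same 11 letters, GGGAATTTCCC, in which 2 overlapping matches of the NF-kB motif were counted, from base −71 of the Cxcl1 start, −97 of Cxcl2 and −73 of Cxcl3. The NF-kB motif was found in 7.25% of the 32851 promoters of this length, so a match is a description of letters and not of a bound factor. Cxcl3 alone of these 3 also has TATAAA (12.37% of promoters). Cxcl10, shown as the interferon-induced counterpart, has 3 NF-kB matches, of which 2 overlap, 1 match of the interferon-stimulated response element (2.98% of promoters) and 1 of TGANTCA (6.75%). TTCNNNGAA (7.02%) was found in none of these 4. These letters did not follow the classes among the members whose windows are not printed. Cxcl9, the other interferon-induced member, had no match of the NF-kB motif, the interferon-stimulated response element, TTCNNNGAA or TGANTCA. The homeostatic Cxcl14 had 1 match of the interferon-stimulated response element and 1 of TTCNNNGAA. Alike letters thus stood beside a Cxcl1 average of 29.6 TPM, a Cxcl2 average of 0.290 TPM and a Cxcl3 average of 0.0157 TPM.

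The transcript forms behind these levels also differed between libraries. Coverage is averaged over all exonic bases of a gene, while FPKM is summed over its transcripts. Their ratio, divided by the aligned bases, is therefore a share of the exonic bases. That share times the exonic length in GENCODE M21 gives the mean length of the transcripts to which reads were assigned. GENCODE M21 lists a spliced coding Cxcl1 transcript of 953 bases and an intron-retaining one of 1871 bases. The implied mean length was 956 to 980 bases in 7 libraries, close to the spliced form, and 1285 bases in trogocytic replicate 2. As a mixture of both forms this is an intron-retaining share of 36.1% in trogocytic replicate 2, against 0.3 to 2.9% in the other 7 libraries. That library also had the lowest Cxcl1 level of its group, with about 39.6 read pairs over the gene. For Cxcl5 the implied length was 1695 to 1863 bases in the 3 trogocytic libraries with a value and 1596 to 1628 bases in the 3 non-trogocytic ones, between a coding form of 1575 and an intron-retaining form of 1863 bases. Of these, trogocytic replicate 1, at 1863 bases, matched the intron-retaining form alone, and trogocytic replicate 2, at 1850 bases, lay near it. The implied lengths of Cxcl2, 1905 to 2066 bases, and of Cxcl3, 3498 bases, also lay at or near intron-retaining forms of 2066 and 3498 bases, though a coding Cxcl2 form of 1859 bases is annotated too. For Cx3cl1 the implied length was 2481 bases in trogocytic replicate 2 and 2516 bases in non-trogocytic replicates 1, 2 and 4. No single annotated form has that length (3315 bases for the longest and 780 for the next), though a mixture of forms could give it as a mean. The gene models behind the deposited values may also differ from GENCODE M21, and the shares and matches given here hold only as far as M21 lists the forms that were used. They rest on few reads, and no test was made of them.

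**Figure D3:**
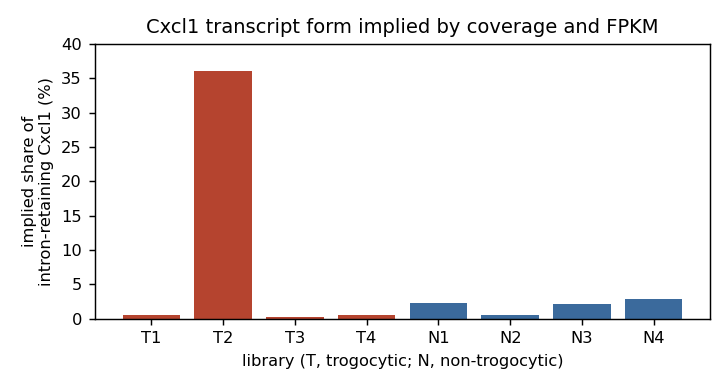
Share of Cxcl1 transcripts implied to retain an intron, in percent, for the 4 trogocytic (T1 to T4) and 4 non-trogocytic (N1 to N4) libraries. Trogocytic replicate 2 stands at 36.1%, and the other 7 libraries at 0.3 to 2.9%.

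The interferon-induced members were near the floor in most libraries. Cxcl9 (ENSMUSG00000029417.9, chromosome 5, 92321347 to 92328079, minus strand), which interferon-gamma induces strongly in macrophages, was listed at 0 in all 4 trogocytic libraries and in non-trogocytic replicates 2 and 4, and had 1.06 and 0.558 TPM in non-trogocytic replicates 1 and 3. Those values rest on about 11.6 and 6.6 read pairs. Cxcl10 (ENSMUSG00000034855.13, chromosome 5, 92346638 to 92348889, minus strand), induced by type I interferons as well, had 8.45 TPM in trogocytic replicate 3 and 2.82 TPM in non-trogocytic replicate 2, about 30.2 and 11.1 read pairs, and was listed at 0 in the other 6 libraries. No library held both genes above 0, and 4 of 8 held neither: at least 1 of the pair was above 0 in 1 of 4 trogocytic and 3 of 4 non-trogocytic libraries. Art3 overlaps Cxcl10 on the other strand and was listed at 0 throughout. The neutrophil-attracting members summed to more than the interferon-induced ones in 8 of 8 libraries. The 2 libraries with Cxcl10 were also the highest in Cxcl1 among all 8.

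The homeostatic members were low, with values above 0 in 1 of 4 trogocytic and 4 of 4 non-trogocytic libraries for Cxcl14, and in 0 of 4 and 2 of 4 for Cxcl12. Cxcl14 (ENSMUSG00000021508.11, chromosome 13, 56288643 to 56296551, minus strand) had 3.93, 0, 0 and 0 TPM in trogocytic replicates 1 to 4, against 8.64, 8.58, 4.63 and 0.307 TPM in non-trogocytic replicates 1 to 4. Non-trogocytic replicates 1 to 3 lay above every trogocytic library, and non-trogocytic replicate 4 fell below trogocytic replicate 1, so the groups overlapped. The log2 fold change was −1.78 ± 0.76 (SE), with a 95% interval from −3.46 to −0.09, an unadjusted p of 0.0407 from limma's test over all genes and a limma adjusted p of 0.9998. It did not pass under any alternative run, with adjusted p-values from 0.8114 to 1 over 21 of them. Its unadjusted limma p was 0.0083 without trogocytic replicate 1 and 0.0048 without non-trogocytic replicate 4, the libraries that make the groups overlap, but 0.0741 to 0.105 without any 1 of the other 6 libraries, 0.0714 with no filter on low values and 0.231 without non-trogocytic replicates 2 and 3.

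Cxcl12 (ENSMUSG00000061353.11, chromosome 6, 117168535 to 117181367, plus strand), which keeps leukocytes near stroma and in bone marrow, was listed at 0 in all 4 trogocytic libraries and in non-trogocytic replicates 1 and 4. It had 2.11 and 4.01 TPM in non-trogocytic replicates 2 and 3, about 21.9 and 47.5 read pairs. The implied mean transcript length was 2894 and 2893 bases, the length of an annotated intron-retaining form (2894 bases). No coding form alone has it (1878, 3132 and 5627 bases), but a mixture of coding forms could give the same mean. With Cxcl9, it was 1 of 2 members listed at 0 in every trogocytic library and above 0 in at least 2 non-trogocytic ones, a pattern shown by 2.07% of the genes that reached 1 TPM, against 1.26% for the reverse pattern. Listed at 0 in all 4 trogocytic libraries were these 2 members, as were 6.37% of those genes. Listed at 0 in all 4 non-trogocytic libraries was Cxcl3, as were 4.74% of those genes, though Cxcl3 never reached 1 TPM and is not one of them.

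Transcripts of fibroblasts were present in some of the same libraries. Of 10 fibroblast and stroma genes, 7 were listed at 0 in all 4 trogocytic libraries, and 5 of them, the collagen genes Col1a1, Col1a2 and Col3a1, the matrix gene Lum and the smooth muscle actin Acta2, were above 0 in 2 or more non-trogocytic libraries. Dcn, which encodes decorin of fibroblast matrix, had 0.185 TPM in trogocytic replicate 1 and 0 in the other trogocytic libraries, against 0, 4.47, 22.1 and 0 TPM in non-trogocytic replicates 1 to 4. Lum had 1.94 and 2.25 TPM in non-trogocytic replicates 2 and 3 and was listed at 0 in the other 6 libraries. The libraries with Cxcl12 were therefore those with Lum and the highest Dcn. Non-trogocytic replicate 3, the highest in both Cxcl12 and Dcn, was also the library with hepatocyte transcripts (155 TPM). Col1a2 had 2.07, 2.15, 7.40 and 0.221 TPM in non-trogocytic replicates 1 to 4, and was listed at 0 in the trogocytic ones, so that Cxcl14 in trogocytic replicate 1 stood beside no collagen transcript of this list. The whole list summed to 5.51 to 14.3 TPM in trogocytic and 5.79 to 47.9 TPM in non-trogocytic co-cultures, of which Fn1 and Thy1, which macrophages and T cells also express, made up most in the trogocytic ones. An endothelium list of 7 genes summed to 0.01 to 8.23 TPM in trogocytic and 4.16 to 5.7 TPM in non-trogocytic co-cultures. The part of stromal, endothelial or hepatocyte transcripts in the values of Cxcl12 and Cxcl14 was not tested.

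**Figure D4:**
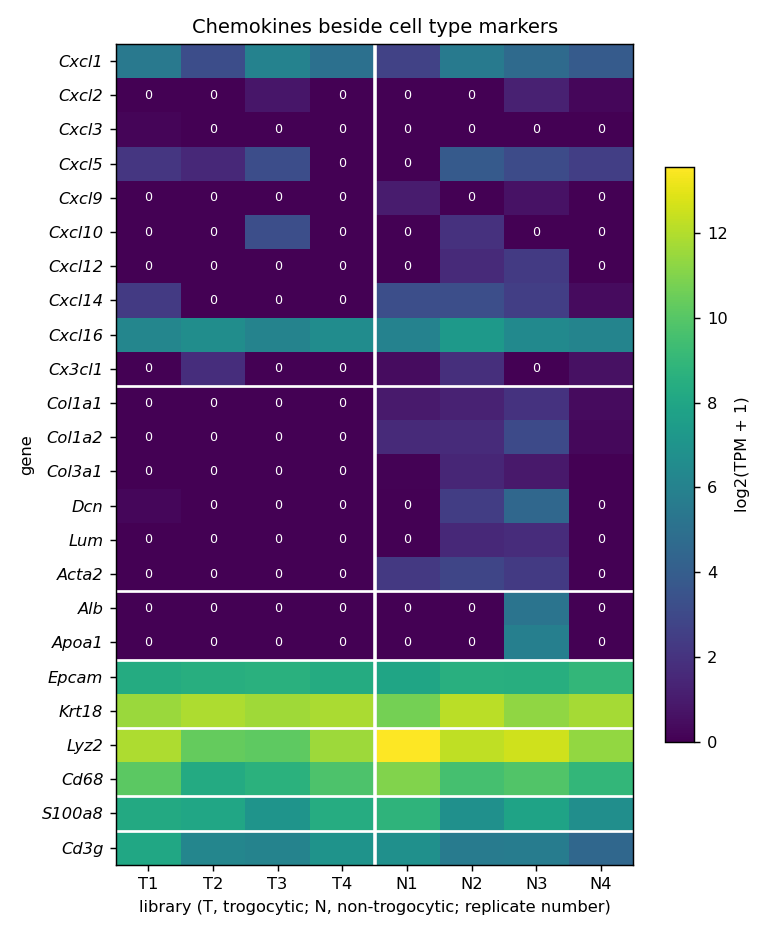
Levels on the log2(TPM + 1) scale of the 10 chemokines above markers of stroma (Col1a1 to Acta2), hepatocytes (Alb, Apoa1), epithelium (Epcam, Krt18), macrophages (Lyz2, Cd68), neutrophils (S100a8) and T cells (Cd3g), with the trogocytic libraries T1 to T4 left of the non-trogocytic libraries N1 to N4 and 0 written where a gene was listed at 0. Cxcl12 appears in N2 and N3, the libraries in which Lum also appears.

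The transmembrane member Cxcl16 was high and even. Cxcl16 (ENSMUSG00000018920.11, chromosome 11, 70453983 to 70459984, minus strand), made by macrophages and by epithelial cells as an anchored ligand, had 73.1, 100.0, 65.9 and 95.5 TPM in trogocytic replicates 1 to 4, against 63.3, 159, 84.5 and 68.7 TPM in non-trogocytic replicates 1 to 4. Only non-trogocytic replicate 2 stood out, above all others, and the remaining 7 libraries lay between 63.3 and 100.0 TPM. The means were 83.6 ± 16.7 TPM in trogocytic and 93.8 ± 44.3 TPM in non-trogocytic co-cultures (SD, n = 4 each). On the log2 scale the groups differed by −0.09 ± 0.31 (SE, adjusted p = 0.9998 in limma). The 95% interval, from −0.76 to 0.59, was the narrowest of the 4 tested members. The sign of so small a difference turned, to 0.20, without non-trogocytic replicate 2, and to 0.02 without trogocytic replicate 3. Non-trogocytic replicate 2 also had the most Krt18, 4617 TPM, and Cldn4, 178 TPM, both epithelial genes, and the colon epithelium list summed highest there. Zmynd15 overlaps Cxcl16 by 552 bases on the other strand and stood at 1.53 to 14.5 TPM, so with the strand setting of the counting not stated a few reads of the overlap cannot be assigned to either gene.

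Cx3cl1 (ENSMUSG00000031778.13, chromosome 8, 94772009 to 94782427, plus strand), anchored on endothelium, neurons and epithelium, had 2.37 TPM in trogocytic replicate 2 and 0 in the other trogocytic libraries, against 0.389, 2.56, 0 and 0.549 TPM in non-trogocytic replicates 1 to 4. The highest library of each group had about 22.0 and 23.1 read pairs. It was below the filter and was not tested.

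The receptors showed which of these ligands had a partner transcript in the same mixture. Cxcr6, the receptor of Cxcl16 on T and natural killer cells, was the most abundant of the receptors by mean TPM, with 67.2, 13.3, 27.6 and 22.6 TPM in trogocytic replicates 1 to 4, against 35.1, 3.73, 4.82 and 17.0 TPM in non-trogocytic replicates 1 to 4. The groups overlapped, and differed by 1.3 ± 0.69 on the log2 scale (SE, adjusted p = 0.9998 in limma). T cell markers were above 0 on the fold change scale in 11 of 11 tested genes of their list, against 5796 of all 11433 tested genes. The median log2 fold change of these markers was 0.91. Of these 11, limma called 0, and 2 had an unadjusted p below 0.05, against 4.59% of all tested genes. The part of T cell transcripts in the Cxcr6 values was not tested. Cxcr2, the neutrophil receptor of Cxcl1 and Cxcl5, had 5.52, 1.43, 0.132 and 0.319 TPM in trogocytic and 0.378, 2.91, 0.270 and 0.183 TPM in non-trogocytic replicates 1 to 4, below the filter. Cxcr1 was listed at 0 in all but trogocytic replicate 3 (0.148 TPM).

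Cxcr3, the receptor of Cxcl9 and Cxcl10 on activated T cells, had 7.64 and 2.17 TPM in trogocytic replicates 1 and 4, libraries in which both of its ligands were listed at 0, and 0.325 TPM in non-trogocytic replicate 1, and was listed at 0 elsewhere. Cxcr4, the receptor of Cxcl12, averaged 7.45 ± 3.42 TPM in trogocytic and 5.68 ± 5.26 TPM in non-trogocytic co-cultures (SD, n = 4 each), and differed by 0.50 ± 0.61 on the log2 scale (SE, adjusted p = 0.9998 in limma), although Cxcl12 itself was listed at 0 in 6 of 8 libraries. Ackr3, which removes Cxcl12, had 0.106, 5.29, 8.96 and 0 TPM in trogocytic and 5.13, 1.58, 4.76 and 0.045 TPM in non-trogocytic replicates 1 to 4 (limma adjusted p = 0.9998). Cx3cr1, the fractalkine receptor of monocytes, reached at most 0.448 TPM, and Ackr1 was listed at 0 in every library. Of the 8 receptors, 3 were tested, and limma called 0, with 0 at an unadjusted p below 0.05.

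**Figure D5:**
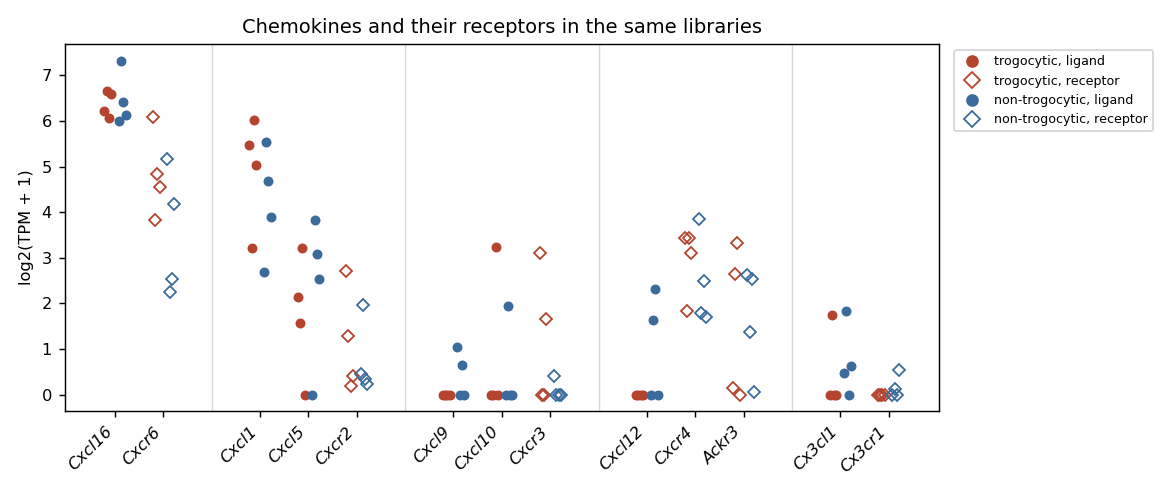
Chemokines (filled circles) and their receptors (open diamonds) on the log2(TPM + 1) scale, 1 symbol per library, trogocytic left of non-trogocytic. Cxcl16 and Cxcr6 are both above 0 in all 8 libraries, while Cxcl9 and Cxcl10 and their receptor Cxcr3 are listed at 0 in most.

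The other CXC ligands followed the same rule of overlap. Of 6 such genes 4 were tested, all 4 with a fold change below 0, a median log2 fold change of −0.87 and, in limma, 0 called and 0 at an unadjusted p below 0.05. Pf4 and Ppbp, the chemokines of platelets and megakaryocytes, stood at 84.3 ± 57.4 TPM in trogocytic against 108 ± 26.7 TPM in non-trogocytic co-cultures and at 21.2 ± 12.7 against 22.4 ± 7.16 TPM (SD, n = 4 each), with Itga2b, a defining gene of that lineage, listed at 0 in all 8 libraries. Cxcl13, the B cell attractant of lymphoid follicles, had 0, 4.42, 17.9 and 0.592 TPM in trogocytic and 5.42, 7.31, 10.2 and 6.14 TPM in non-trogocytic replicates 1 to 4. Cxcl15 had 1.25, 1.97, 3.11 and 0 TPM in trogocytic and 0, 5.98, 5.91 and 15.5 TPM in non-trogocytic replicates 1 to 4. Cxcl11, the third Cxcr3 ligand, was listed at 0 in all 8 libraries.

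The next list held 24 genes of interleukin 1, tumour necrosis factor, interleukin 17 and NF-kB signalling, both inducers of the neutrophil attractants and other targets and inhibitors of the pathway. Of these, 14 were tested, 9 with a fold change above 0 and 5 below (median log2 fold change 0.12), and limma called 0, with 1, Rela, at an unadjusted p below 0.05. Of the inducing cytokines, Il17a and Il17f were listed at 0 in all 8 libraries, as was Csf3, a target that encodes a neutrophil growth factor. Il1b was above 0 only in trogocytic replicate 4 (0.443 TPM), and Tnf only in trogocytic replicate 3 (0.285 TPM) and non-trogocytic replicate 2 (1.31 TPM), the libraries with Cxcl10. Il1a, a form of interleukin 1 that epithelial cells hold, stood at 14.5 ± 6.44 TPM in trogocytic and 35.3 ± 28.8 TPM in non-trogocytic co-cultures (SD, n = 4 each). Rela, the p65 subunit of NF-kB, had 2.35, 8.30, 3.40 and 3.22 TPM in trogocytic replicates 1 to 4, against 0.848, 1.12, 1.27 and 0.426 TPM in non-trogocytic replicates 1 to 4. Its groups did not overlap, as those of 1.37% of all tested genes did not in this direction, and its log2 fold change of 1.37 ± 0.45 did not pass (SE, limma adjusted p = 0.9388). Nfkbia, the inhibitor that NF-kB itself induces, stood at 40.1 ± 8.33 TPM in trogocytic and 55.4 ± 12.8 TPM in non-trogocytic co-cultures (limma adjusted p = 0.9998). Tnfrsf1a, a receptor of tumour necrosis factor, stood at 3.44 ± 1.43 TPM in trogocytic and 1.52 ± 0.274 TPM in non-trogocytic co-cultures, with overlap (limma adjusted p = 0.9998).

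Of 24 interferon-gamma response genes, 14 were tested, 5 with a fold change above 0 and 9 below (median log2 fold change −0.46), and limma called 0, with 1, Irgm1, at an unadjusted p below 0.05. Of 13 tested macrophage and monocyte genes 11 also lay below 0 (median log2 fold change −0.79), against 49.3% of all tested genes. Of these 13, limma called 0, and 4 had an unadjusted p below 0.05, against 4.59% of all tested genes. The part of macrophage and monocyte transcripts in the values of Cxcl9 and of the interferon-gamma list was not tested. Ifng was above 0 only in trogocytic replicate 1 (6.17 TPM), a library without Cxcl9 or Cxcl10, while its receptor gene Ifngr1 stood at 104 ± 51.0 TPM in trogocytic and 91.5 ± 34.2 TPM in non-trogocytic co-cultures (SD, n = 4 each). Irgm1, an interferon-induced GTPase, had 3.22, 1.10, 18.6 and 14.02 TPM in trogocytic replicates 1 to 4, against 55.3, 24.7, 20.3 and 20.6 TPM in non-trogocytic replicates 1 to 4. The groups did not overlap, as for 1.3% of tested genes in this direction, and the log2 fold change of −1.999 ± 0.70 did not pass (SE, limma adjusted p = 0.9691). Irgm2, of the same family, had a log2 fold change of −0.86 ± 0.45, and Jak1, a kinase of interferon receptors, of 0.35 ± 0.41 (SE, limma adjusted p = 0.9998 for both).

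Of 8 genes that control decay of chemokine messages, 7 were tested, 3 with a fold change above 0 and 4 below, and limma called 0, with 1, Hnrnpd, at an unadjusted p below 0.05. Hnrnpd, which encodes the AU-rich element binding protein AUF1, stood at 50.1 ± 7.97 TPM in trogocytic and 31.2 ± 5.91 TPM in non-trogocytic co-cultures (SD, n = 4 each). Its groups did not overlap, as for 1.37% of all tested genes in this direction. The log2 fold change of 0.67 ± 0.25 did not pass (SE, limma adjusted p = 0.9998). The log2 fold change was −0.65 ± 0.42 for Zfp36l1 and −0.07 ± 0.44 for Zfp36l2, which promote decay of AU-rich messages, and 0.28 ± 0.37 for Elavl1, which stabilises them (SE, limma adjusted p = 0.9998 for each). Of 9 genes of shedding and processing, 6 were tested, 2 above 0 and 4 below, and limma called 0, with 0 at an unadjusted p below 0.05. Adam10, the main sheddase that cuts Cxcl16 and Cx3cl1 from the membrane, stood at 50.0 ± 19.9 TPM in trogocytic and 66.5 ± 17.5 TPM in non-trogocytic co-cultures. Dpp4, which trims and inactivates Cxcl10 and Cxcl12, stood at 6.03 ± 1.19 TPM in trogocytic and 3.00 ± 1.78 TPM in non-trogocytic co-cultures (limma adjusted p = 0.9998). Mmp8, a neutrophil collagenase, stood at 28.9 ± 24.3 TPM in trogocytic and 16.9 ± 24.2 TPM in non-trogocytic co-cultures (limma adjusted p = 0.9998).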

How the data were processed

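Polyadenylated RNA of 8 mixed co-cultures, 4 trogocytic and 4 non-trogocytic by their titles, was sequenced as paired-end reads of 100 bp from low-input libraries, per the labels' protocols. Named in the submitters' processing notes are the tools StringTie 1.3.3, HISAT2 and DESeq 2 and the builds GRCm38 and mm10. For the annotation release and strand setting, the answer is not given in the sources used here. Each table has 3 values a gene, per the file headers. The coverage, as deposited, is an unscaled mean depth over exonic bases. The authors' FPKM is scaled by length and depth, and the authors' TPM sums to the same total in every library.

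TPM was summed per gene ID. Genes with at least 1 TPM in 4 or more libraries were tested on log2(TPM + 1) by the two-sided moderated test of limma 3.58.1 under R 4.3.3, using its mean-variance trend, and p-values were adjusted after Benjamini and Hochberg. Fold changes on that scale understate those of low genes. No count model was used, since these are not counts. Aligned bases are the most frequent ratio of coverage to FPKM among expressed genes, 6.93 M to 9.21 M read pairs if each aligned over 200 bases. Coverage times exonic length, summed over genes matched to GENCODE M21, came to less, 0.72 to 1.02 Gb a library. Read pairs behind a value are coverage times the exonic length in GENCODE M21, divided by 200. Of the 52636 gene IDs, 49035 matched that release. The members, lists and naming rule were chosen with earlier results of these data known. The naming rule takes all members, all listed receptors, the 2 genes with the smallest p and the 2 highest of each other pathway list and the 2 highest of each marker list. All of the members, receptors and pathway genes it takes are printed, but only some of the marker genes, and other genes named were chosen after their values were seen. Also tried were other units, pseudocounts, filters, scalings and variance models, sums by symbol, a replicate block and fits without 1 or 2 libraries.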

Additional observations from a re-analysis of the deposited data

Results flagged for a closer look

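In 7 of 17 member and group combinations with any value above 0, 1 of the 4 libraries lay far from the others by Dixon's criterion, which chance alone meets in about 1 of 20 groups. In 6 of these 7 the other 3 libraries of the group were listed at 0, so the criterion is met by any single value above 0. In trogocytic co-cultures these were Cxcl2 at 0.764 TPM and Cxcl10 at 8.45 TPM, both in replicate 3, Cxcl3 at 0.126 TPM and Cxcl14 at 3.93 TPM, both in replicate 1, and Cx3cl1 at 2.37 TPM in replicate 2. In non-trogocytic co-cultures they were Cxcl2 at 1.35 TPM in replicate 3 and Cxcl10 at 2.82 TPM in replicate 2.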

How the results depend on the processing

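The number of genes called over the whole table was 6. A pseudocount of 0.01 gave 2, dropping the filter 1, dropping the variance trend 1, the replicate block 0 and the replicate block with median-of-ratios rescaling 0, with 654 and 647 genes at an unadjusted limma p below 0.05 in those last fits. Fits without 1 library gave 0 to 3, and 0 without trogocytic replicates 1, 2 or 3 or non-trogocytic replicate 3 (608, 496, 529 and 457 genes at an unadjusted p below 0.05). Fits without replicate 1 of each group, and without non-trogocytic replicates 2 and 3, chosen after seeing the data, gave 0 and 0 (657 and 403 at an unadjusted p below 0.05). All of these left-out fits used fewer samples. With the pseudocount, filter, trend and block the cause was not tested. Whether replicate numbers pair the libraries is not known, and 4 libraries a group are too few for their deviations to settle it. Deviations of same-numbered libraries correlated at 0.235, 0.005, 0.062 and −0.093, against −0.214 to 0.166 between differently numbered ones. None of the 4 tested chemokines passed under any alternative, the block included. Cxcl1 kept its sign in all 22, at 0.05 to 1.64, and Cxcl14 in all 21, at −6.18 to −1.23. Cxcl5 turned to 0.46 without non-trogocytic replicates 2 and 3. Cxcl16 ran from −0.24 to 0.20 with 1 library left out, and turned to 0.02 without trogocytic replicate 3, to 0.20 without non-trogocytic replicate 2 and to 0.32 without non-trogocytic replicates 2 and 3. Cxcl5 and Cxcl14 did not reach the filter of 5 TPM. The median fold change of all tested genes moved by less than 0.1 under both rescalings. Members below the filter rest on few reads, so a value listed at 0 is not an absence.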
